A study of Mus musculus with 12 samples.

Results

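Transcript levels of 10 survival and death genes of the Bcl2 family were compared across 12 libraries of mouse lymphoid progenitors with and without the long noncoding RNA Firre. These genes were found by symbol among the 47643 genes of the deposited table of expression levels (TPM, a read count adjusted for the length of the gene and for the size of the library), and all 10 were among the 14479 genes tested, those with a mean TPM of at least 1. The Bcl2 family decides, at the outer membrane of mitochondria, whether a cell lives or dies. Its survival members (Bcl2, Bcl2l1, and Mcl1 here) bind and hold the pro-death members, its effectors (Bax and Bak1) form pores that release cytochrome c when they are freed, and its BH3-only members (Bcl2l11, Bbc3, Pmaip1, Bad, and Bid) sense stress and tip the balance toward the effectors. In early lymphocyte development IL-7 receptor signaling is known to keep survival members up and Bcl2l11, also called Bim, in check.

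The RNA came from common lymphoid progenitors (CLPs), bone marrow precursors of lymphocytes sorted as Lin- Sca1lo cKitlo IL7Ra+ cells from age-matched adult male mice, and 1 poly(A)+ library was made from each mouse. The 4 WT mice carried an intact Firre locus, which makes a nuclear long noncoding RNA from the X chromosome. The 4 ∆Firre mice carried a germline deletion, made with CMV-Cre and backcrossed to C57BL/6J, that removes the whole locus with its promoter, so that RNA, transcription, and DNA were lost together. The 4 Firre rescue mice carried that same deletion, a Firre cDNA transgene under a tet-responsive element, and CAG-rtTA3, and were fed dox to induce the transgene in all tissues where the CAG promoter is active. Their libraries thus differ from ∆Firre in transgene, activator, and diet at once, and also in library numbers, which form a range of their own, so these cannot be told apart. The other 2 ranges hold 2 WT and 2 ∆Firre libraries each.

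The labels held where they could be checked. Firre stood between 25.2 and 31.6 TPM in WT, was listed at 0 in every ∆Firre library, and ranged from 59.9 to 174 TPM in Firre rescue. Reads recovered from the spacing of the TPM values came to 10687717 to 17709914 per WT library, 13967410 to 17093464 per ∆Firre library, and 25043316 to 31724795 per Firre rescue library, over genes that hold 94.3% to 95.9% of the TPM. All 9 CLP markers were detected, and their TPM summed to 6410 to 9000 per WT, 7500 to 7820 per ∆Firre, and 9020 to 9880 per Firre rescue library, most of it Dntt (4320 to 6720 TPM over all libraries). In Firre rescue Ly6d (1060 to 1560 TPM, 457 to 586 elsewhere) and Rag1 (277 to 334 TPM, 141 to 251 elsewhere) were called higher and Kit (48.2 to 62.3 TPM, 61.9 to 82.9 elsewhere) lower in both comparisons. Markers of other cells also differed for Firre rescue. All 7 B precursor markers were called higher there against both other groups (summed 835 to 1340 TPM, where WT libraries held 213 to 418 and ∆Firre libraries 280 to 370), and all 5 basophil or mast cell markers lower (63.5 to 142 TPM, where they held 1030 to 8870 and 2890 to 4240), with Ms4a2 at 0.128 TPM or less. The antibody-secreting list summed to 214 to 357 TPM in Firre rescue, 818 to 1530 in WT, and 1550 to 3330 in ∆Firre. Most of it was Jchain in WT (619 to 1300 TPM) and ∆Firre (1370 to 3110 TPM), which stood at 1.18 to 195 TPM in Firre rescue. Of its 4 genes 3 were called lower against ∆Firre and 2 against WT, whereas Sdc1 was called higher against ∆Firre (70.5 to 104 TPM, against 43.0 to 58.1). All 3 ILC2 markers and 2 of 3 NK cell markers were called lower in both comparisons, as were 1 of 4 neutrophil and 1 of 2 mature B cell markers tested. Of 3 plasmacytoid dendritic cell markers 2 were called higher against ∆Firre and 0 against WT, and 0 markers of T cells, monocytes, eosinophils, and erythroid cells were called. The T cell list summed to 2.47 to 16.4 TPM in WT libraries, 4.74 to 12.1 in those of ∆Firre, and 5.09 to 17.3 in those of Firre rescue, mostly Cd3g and Cd4, with Cd3e at 0.732 TPM or less. In such bulk samples fewer cells of a type and less RNA per cell cannot be told apart, and the part of these shifts in the results on Firre rescue was not tested.

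By mean TPM, a scale that takes gene length into account, Mcl1 was the highest member in every group. It stood at 258 ± 35.9 TPM for WT, 259 ± 19.9 for ∆Firre, and 218 ± 31.0 for Firre rescue (SD, n = 4 each), above 95.9% to 96.7% of the genes tested. Bcl2 came next in WT and in ∆Firre, and the libraries of Mcl1 did not overlap with those of Bcl2, nor those of Bcl2 with those of Bax, in either group. Bax, Bak1, and Bid followed in WT, each overlapping with the next, whereas in ∆Firre Bid (48.4 to 52.3 TPM) stood above Bak1 (35.9 to 47.3 TPM) with no overlap. Bcl2l11, Bad, and Bcl2l1 formed a lower tier, whose group means lay between 7.01 and 19.0 TPM, and Pmaip1 and Bbc3 stood lowest, with means between 1.45 and 4.69 TPM. In Firre rescue the order of the means differed: Bcl2l11 came after Bad and Bcl2l1, with overlapping libraries, and Bax, at 95.02 ± 24.4 TPM, came before Bcl2, at 81.7 ± 15.3 TPM, by its mean, although their libraries overlapped.

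**Figure D1:**
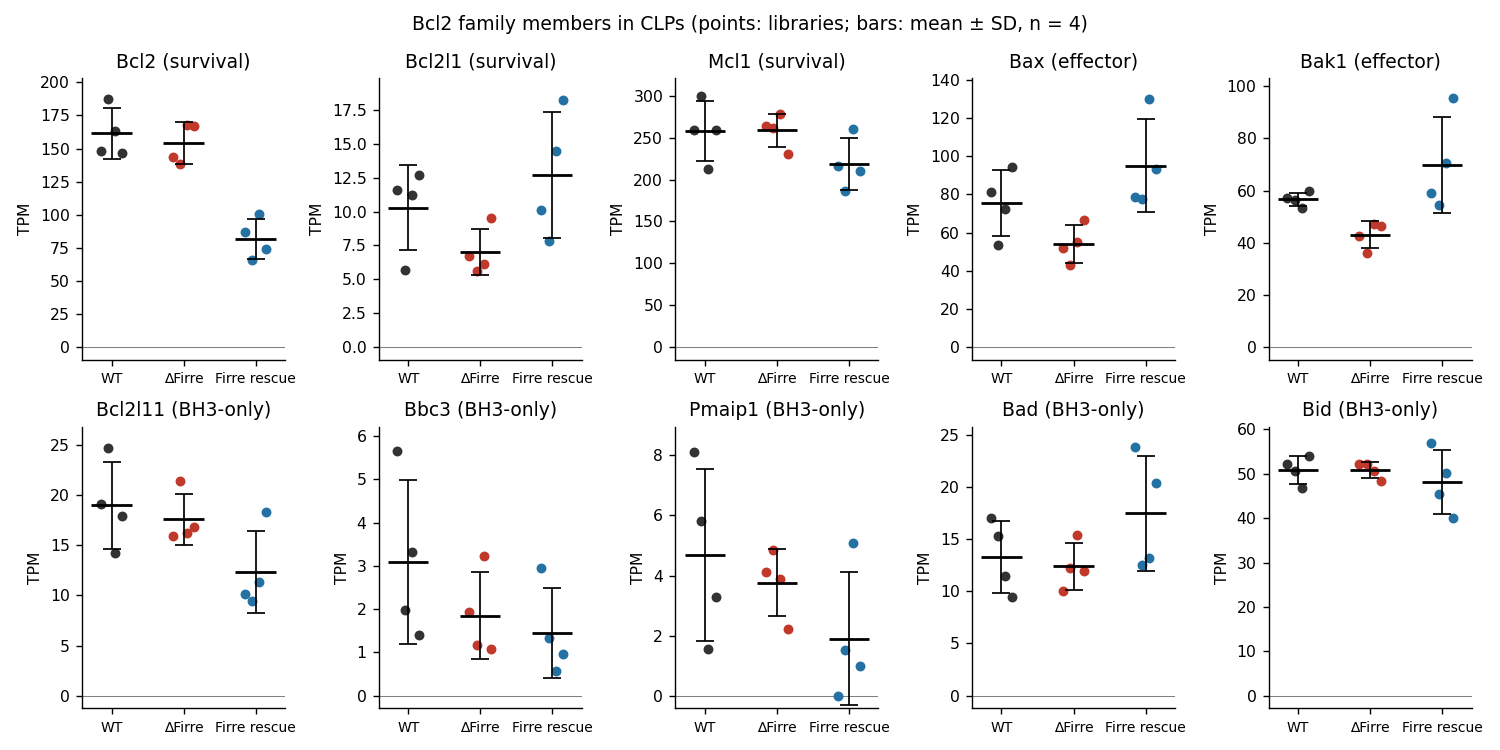
TPM (vertical axes, linear) of the 10 members in WT, ∆Firre, and Firre rescue CLPs, 1 panel per gene, with 1 point per library and bars for the mean ± SD (n = 4). The Firre rescue points of Bcl2 lie between 65.6 and 100.6 TPM, below every other library, whereas those of Bax and Bak1 lie above every ∆Firre library.

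Differences were tested with limma on log2(TPM + 1) with the 12 libraries in one fit, two-sided, and a gene was called where its p, adjusted over all genes tested after Benjamini and Hochberg, was at most 0.1. Deletion of Firre alone moved no member past that threshold. In ∆Firre against WT limma called 0 of the 10 members (3 of all genes, 0.0207%), limma-voom on the recovered reads also called 0, and 2 members, Bax and Bak1, had an unadjusted p under 0.05 (767 of all genes). Between Firre rescue and ∆Firre 4 members were called: Bcl2 was lower, and Bax, Bak1, and Bcl2l1 were higher. Across all genes 8.58% were called higher and 19.3% lower in this comparison, so the share of members called was above the background for higher calls (3 of 10) and below it for lower ones (1 of 10), and no test was made of these shares. After a correction for the GC content of transcripts 1 of 10 was higher (Bak1, background 14.3%) and 1 of 10 lower (Bcl2, background 6.72%), both near the background. Between Firre rescue and WT 2 members were called, Bcl2 and Bcl2l11, both lower, where 4.82% of all genes were called higher and 19.4% lower, so that 2 of 10 is near the background. The comparisons share libraries: ∆Firre stands in the first and second, and Firre rescue in the second and the last.

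The median gene was lower in Firre rescue by 0.16 on the log2 scale against ∆Firre and by 0.21 against WT, and the median of the 10 members was -0.17 and -0.16. The differences across genes also followed the GC content of the transcript, with a Spearman rho across genes (which are not independent replicates) of 0.497 for Firre rescue against ∆Firre, 0.355 for Firre rescue against WT, and -0.419 for ∆Firre against WT. The values after a correction for GC content, chosen after seeing the data and fitted over the 11713 genes with a GC value, are therefore given beside the calls described. After it 14.3% of genes were called higher and 6.72% lower against ∆Firre, and 11.1% higher and 5.93% lower against WT. When the null spread of the statistics was instead estimated from their central 75%, the spread was 1.88 for Firre rescue against ∆Firre and 1.68 against WT, and no gene of the table, hence no member, was called in either (629 and 1020 genes had an unadjusted p under 0.05).

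**Figure D2:**
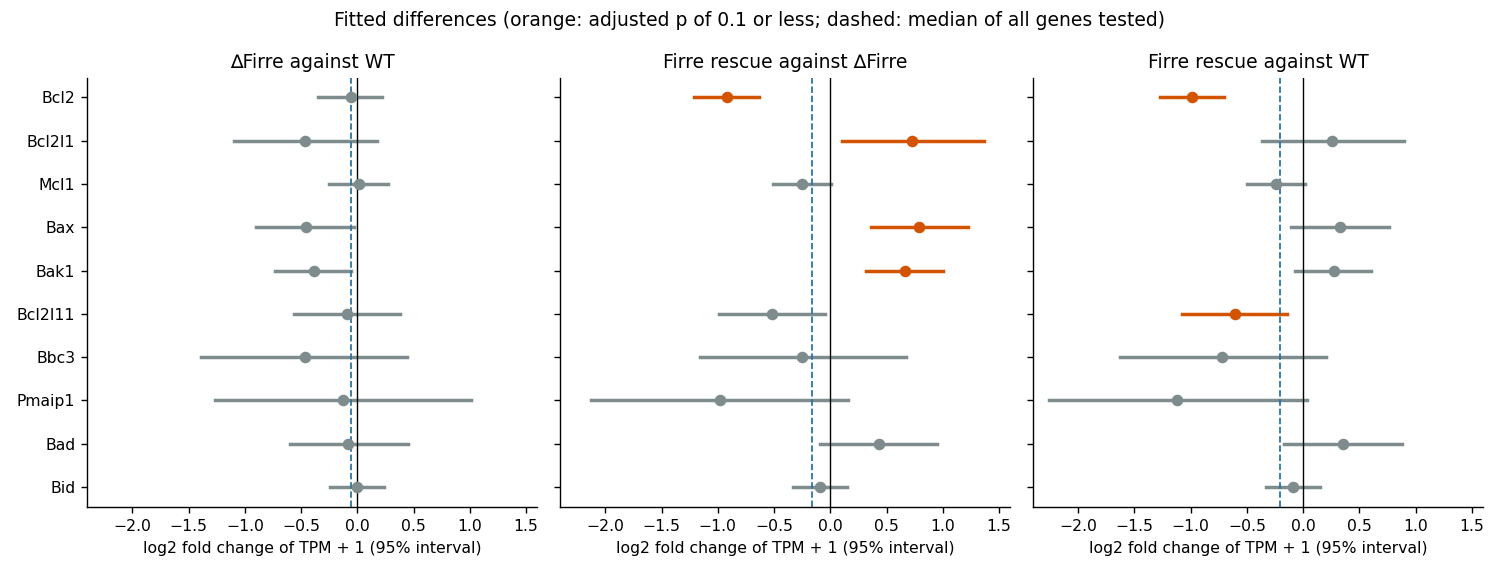
Fitted log2 fold changes of TPM + 1 (horizontal axes) with 95% intervals for the 10 members in the 3 comparisons. Orange marks members with an adjusted p of 0.1 or less, and the dashed line the median of all genes tested, which lay at -0.06, -0.16, and -0.21 in the 3 panels from left to right.

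Bcl2 (ENSMUSG00000057329.7, chr1:106538176-106714290 in GRCm38, minus strand), the founding survival gene of the family, had the smallest p of the members in both comparisons with Firre rescue. Its levels were 148, 188, 163.5, and 147 TPM in WT mice 6, 8, 10, and 11, and 143.5, 138, 168, and 167 TPM in ∆Firre mice 8, 9, 11, and 12. In Firre rescue mice 1, 2, 3, and 4 they were 86.8, 65.6, 100.6, and 73.7 TPM. Every Firre rescue library lay below all 8 others, which overlapped with each other. Groups lay apart in this direction for 15.6% of all genes against ∆Firre and for 14.5% against WT.

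Bcl2 fell by 0.92 on the log2 scale from ∆Firre to Firre rescue (standard error 0.13, 95% interval -1.21 to -0.63, limma adjusted p = 0.000907), to 0.528 of the ∆Firre level. Against WT the log2 fold change was -0.99 (standard error 0.13, limma adjusted p = 0.000826). With ∆Firre against WT it was -0.06, with an interval of -0.35 to 0.22. Each value rested on 6043 to 9745 recovered reads. With GC correction the differences were smaller, at -0.59 and -0.66, and Bcl2 was still called, with limma adjusted p values of 0.0066 and 0.00348. It was also called with any single library left out, with a highest limma adjusted p of 0.00453 against ∆Firre and 0.00366 against WT.

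Mcl1 (ENSMUSG00000038612.16, chr3:95656944-95663179), a short-lived survival protein that lymphoid progenitors are known to need, was not called in any comparison. The WT libraries held 259.8, 300.5, 213, and 259.6 TPM, the ∆Firre libraries 264, 262, 278, and 231 TPM, and the Firre rescue libraries 216.5, 186, 260.3, and 210.2 TPM, in the order of mice given for Bcl2. The highest Firre rescue value reached into both other groups. The log2 fold change was -0.25 against ∆Firre (interval -0.51 to 0.01, limma adjusted p = 0.159) and -0.24 against WT (limma adjusted p = 0.187). Without Firre rescue mouse 3 the adjusted p was 0.0535 and 0.0606, and without WT mouse 10 it was 0.0872 against WT. After GC correction the differences were 0.02 and 0.03, so that no direction held across these settings.

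Bcl2l1 (ENSMUSG00000007659.18, chr2:152758732-152833803), which encodes the survival protein Bcl-xL, made up the smallest part of the survival transcripts. It was at 11.6, 5.70, 11.2, and 12.7 TPM in WT and at 6.75, 5.63, 6.14, and 9.50 TPM in ∆Firre, on 92 to 301 reads. In Firre rescue it was at 10.1, 7.82, 14.5, and 18.3 TPM, on 400 to 790 reads. The groups overlapped in all 3 comparisons. From ∆Firre to Firre rescue Bcl2l1 rose by 0.73 on the log2 scale, with a standard error of 0.29 and a limma adjusted p of 0.0978, just inside the threshold. The call was lost in 16 of 24 other settings. Leaving out ∆Firre mouse 8, 9, or 11 gave adjusted p values of 0.168, 0.209, and 0.189, and leaving out Firre rescue mouse 1, 3, or 4 gave 0.11, 0.171, and 0.244. After GC correction the log2 fold change was 0.60 (limma adjusted p = 0.127).

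Bax (ENSMUSG00000003873.10, chr7:45461695-45466903), the effector that moves from the cytosol to mitochondria when activated, stood higher in Firre rescue than in ∆Firre. It was at 81.3, 53.7, 72.3, and 94.6 TPM in WT, at 51.7, 42.8, 54.9, and 66.8 TPM in ∆Firre, and at 78.8, 77.8, 130.0, and 93.5 TPM in Firre rescue. All Firre rescue libraries lay above all ∆Firre libraries, as in 6.31% of all genes, and they overlapped with WT. The log2 fold change was 0.79 against ∆Firre (standard error 0.20, interval 0.36 to 1.22, limma adjusted p = 0.0178). The call held with each single library left out (highest limma adjusted p 0.0586), but not after GC correction, where the log2 fold change was 0.28 (limma adjusted p = 0.283). The Bax transcript has a GC content of 62.6%, against a median of 50.1% over the genes tested. Against WT, Bax gave 0.33 (limma adjusted p = 0.29), and 0.51 (limma adjusted p = 0.0868) once libraries were rescaled by their median ratio.

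Bak1 (ENSMUSG00000057789.13, chr17:27019812-27028627), the effector that sits in the mitochondrial membrane from the start, showed the same direction. It was at 57.0, 56.4, 53.5, and 59.7 TPM in WT, the narrowest spread of all members in that group (CV 4.5%). The ∆Firre libraries held 42.7, 35.9, 47.3, and 46.5 TPM and the Firre rescue libraries 59.1, 54.4, 70.6, and 95.4 TPM. The ∆Firre libraries were the lowest 4 of the 12, below every WT library and every Firre rescue library. Bak1 rose from ∆Firre to Firre rescue by 0.66 on the log2 scale (standard error 0.16, limma adjusted p = 0.013), and after GC correction by 0.48 (limma adjusted p = 0.0136). The highest limma adjusted p with a library left out was 0.0432. Against WT the log2 fold change was 0.27 (limma adjusted p = 0.267), and it was called after median-ratio rescaling (0.45, limma adjusted p = 0.0524) and after quantile normalization (0.40, limma adjusted p = 0.0831).

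Both effectors had lower values in ∆Firre than in WT that did not pass the test across all genes. Bak1 differed by -0.39 on the log2 scale (interval -0.73 to -0.06, unadjusted p = 0.0259, limma adjusted p = 0.929) and Bax by -0.46 (interval -0.90 to -0.03, unadjusted p = 0.0383, limma adjusted p = 0.929). Bak1 was the 1 member of 10 whose ∆Firre and WT libraries lay apart, in either direction a feature of 5.33% of all genes. After GC correction the log2 fold changes were -0.20 for Bak1 and -0.17 for Bax.

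Bcl2 on one side and Bax and Bak1 on the other were the members whose Firre rescue and ∆Firre libraries lay apart, so the sequence upstream of their starts is shown for these 3. The sequences come from RefSeq (GRCm38.p6), cover 250 bases before the start on the minus strand, and run 5′ to 3′ toward the gene, with capitals for GGGCGG, the GC box, on either strand. The start used for Bax lies inside the gene bounds given above, which the window overlaps by 5 bases.
Bcl2 (chr1:106714291-106714540): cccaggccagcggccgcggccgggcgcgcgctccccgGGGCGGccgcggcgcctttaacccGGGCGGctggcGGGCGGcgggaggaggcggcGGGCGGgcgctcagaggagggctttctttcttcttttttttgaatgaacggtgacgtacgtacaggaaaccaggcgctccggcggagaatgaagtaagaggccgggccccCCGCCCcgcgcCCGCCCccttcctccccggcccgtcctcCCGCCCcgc
Bax (chr7:45466899-45467148): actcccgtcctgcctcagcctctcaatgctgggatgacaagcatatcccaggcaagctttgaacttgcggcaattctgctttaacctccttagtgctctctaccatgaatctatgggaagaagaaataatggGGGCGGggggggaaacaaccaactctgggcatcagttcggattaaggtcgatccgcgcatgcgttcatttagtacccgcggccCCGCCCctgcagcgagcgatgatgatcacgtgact
Bak1 (chr17:27028628-27028877): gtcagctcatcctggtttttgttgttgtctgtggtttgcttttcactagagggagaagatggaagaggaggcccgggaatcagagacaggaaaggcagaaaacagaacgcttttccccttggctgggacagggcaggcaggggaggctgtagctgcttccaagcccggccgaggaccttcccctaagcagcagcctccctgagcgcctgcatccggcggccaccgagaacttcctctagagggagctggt
The GC box occurred 7 times in the Bcl2 window, 2 times in that of Bax, and 0 times in that of Bak1, and 32.7% of all 32851 windows of this length hold it on either strand. CCAAT and TATAAA, searched on both strands, occurred in none of the 3 windows and in 33.8% and 12.4% of all windows. The Bcl2 window is 74.8% G or C and holds 36 CpG dinucleotides, above 95.8% of windows in GC content. The Bax and Bak1 windows are 54.0% and 58.4% G or C, with 14 and 8 CpG, where the median window has 52.4% and 6 CpG. These matches describe letters only.

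The BH3-only members varied less clearly. Bcl2l11 (ENSMUSG00000027381.16, chr2:128126038-128162547), the Bim gene that limits lymphocyte survival when cytokine is short, was at 19.1, 24.7, 14.2, and 17.9 TPM in WT and at 16.0, 21.4, 16.2, and 16.8 TPM in ∆Firre. In Firre rescue it was at 10.1, 9.41, 11.3, and 18.3 TPM. Of these libraries 3 lay below all others, and mouse 4 lay within both groups. Bcl2l11 fell against WT by 0.61 on the log2 scale (standard error 0.22, limma adjusted p = 0.0759) and its log2 fold change against ∆Firre was -0.52 (interval -0.99 to -0.05, limma adjusted p = 0.114). The call against WT was lost in 17 of 24 other settings: without WT mouse 6, 8, or 11 (adjusted p 0.136, 0.179, and 0.124), without Firre rescue mouse 1, 2, or 3 (0.154, 0.166, and 0.106), and after GC correction (-0.32, limma adjusted p = 0.383), among others. Without Firre rescue mouse 4 the difference from ∆Firre was -0.71 (limma adjusted p = 0.0342). With limma-voom on the recovered reads Bcl2l11 was also called lower against ∆Firre (-0.50, adjusted p = 0.088).

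Bid (ENSMUSG00000004446.12, chr6:120893119-120917062), which is cleaved by caspase-8 and links death receptors to mitochondria, showed the smallest differences of the 10. Its means were 50.9 ± 3.13 TPM for WT, 50.8 ± 1.82 for ∆Firre, and 48.1 ± 7.18 for Firre rescue (SD, n = 4 each). The log2 fold change against ∆Firre was -0.09 with an interval of -0.33 to 0.15, and against WT it was the same. For ∆Firre against WT the interval ran from -0.24 to 0.24.

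Bad (ENSMUSG00000024959.13, chr19:6941861-6951905), which Akt phosphorylation holds inactive, was at 9.42 to 17.0 TPM per WT library, 10.01 to 15.4 per ∆Firre library, and 12.5 to 23.8 per Firre rescue library. Its log2 fold change against ∆Firre was 0.43 (interval -0.09 to 0.95, limma adjusted p = 0.232), and -0.00 after GC correction. Quantile normalization gave 0.59 with a limma adjusted p of 0.0965.

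Bbc3 (ENSMUSG00000002083.12, chr7:16308398-16318334) and Pmaip1 (ENSMUSG00000024521.7) encode Puma and Noxa, the BH3-only proteins best known as p53 targets. Both were low. Bbc3 ranged from 1.41 to 5.66 TPM in WT and 1.07 to 3.24 in ∆Firre, and from 0.565 to 2.94 TPM in Firre rescue, on 12 to 54 reads per library. Pmaip1 ranged from 1.55 to 8.11 TPM in WT and 2.23 to 4.85 in ∆Firre. In Firre rescue it was at 0, 1.53, 5.07, and 1.003 TPM, on 0, 45, 142, and 25 reads. Neither was called, and their intervals were wide, running for Pmaip1 against ∆Firre from -2.13 to 0.16 (limma adjusted p = 0.211). Without Firre rescue mouse 3, Pmaip1 gave -1.44 against ∆Firre (limma adjusted p = 0.0499) and -1.57 against WT (limma adjusted p = 0.0363).

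The balance of survival and death members was described by the log2 ratio of their summed TPM, which does not change when a library is multiplied by a constant but does change with GC correction, and for which no p is given. The ratio of the 3 survival members to the 7 death members was 0.80, 1.24, 0.93, and 0.80 in WT mice 6, 8, 10, and 11, and 1.21, 1.25, 1.24, and 1.07 in ∆Firre mice 8, 9, 11, and 12. In Firre rescue mice 1 to 4 it was 0.44, 0.36, 0.42, and 0.17. Every Firre rescue library lay below every library of the other groups, with survival transcripts at 1.12 to 1.35 times the death transcripts, against 1.74 to 2.37 times in WT and 2.11 to 2.38 times in ∆Firre. The means differed by -0.85 from ∆Firre and by -0.60 from WT. ∆Firre and WT differed by 0.25 and overlapped, with WT mouse 8 among the ∆Firre values. After GC correction the ratio was 0.76 to 1.22 for WT, 0.92 to 1.10 for ∆Firre, and 0.46 to 0.77 for Firre rescue. The difference from ∆Firre was then -0.38, still with no overlap, and that from WT -0.30, with an overlap.

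The shift was larger against the effectors than against the BH3-only members. The survival sum was 430 ± 45.2 TPM for WT, 420 ± 21.9 for ∆Firre, and 313 ± 48.0 for Firre rescue (SD, n = 4 each). The effector sum was 132 ± 18.8, 97.1 ± 14.5, and 165 ± 34.8 TPM, and the BH3-only sum 91.0 ± 11.4, 86.4 ± 5.12, and 81.2 ± 9.69 TPM. The survival to effector ratio was 1.44 to 2.17 for WT, 1.85 to 2.36 for ∆Firre, and 0.68 to 1.18 for Firre rescue on the log2 scale. The ratio of survival to BH3-only members was 2.04 to 2.33, 2.14 to 2.34, and 1.74 to 2.23, and overlapped between all groups. Leaving Bcl2 out of the survival to death ratio gave 0.14 to 0.55 for WT, 0.31 to 0.65 for ∆Firre, and -0.24 to -0.03 for Firre rescue. Without GC correction the Firre rescue libraries thus lay below the others without Bcl2 as well. The ratio without Bcl2 was not computed after GC correction. After GC correction the survival to effector difference was -0.54 against ∆Firre and -0.38 against WT in place of -1.19 and -0.77, and the Firre rescue libraries (1.11 to 1.53) lay below those of ∆Firre (1.63 to 1.99) and overlapped with WT (1.38 to 2.13).

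**Figure D3:**
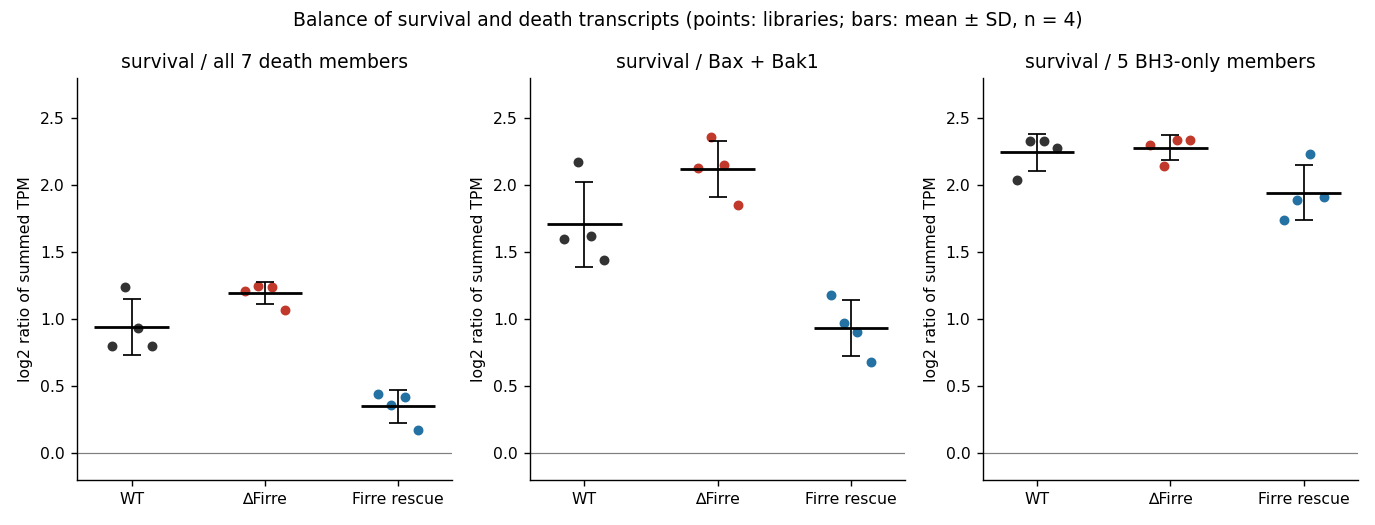
Log2 ratio of summed TPM (vertical axes) of the survival members to all 7 death members, to Bax and Bak1, and to the 5 BH3-only members, with 1 point per library and bars for the mean ± SD (n = 4). Values are without GC correction. In the first panel Firre rescue lies between 0.17 and 0.44, WT between 0.80 and 1.24, and ∆Firre between 1.07 and 1.25, whereas in the panel for BH3-only members the groups overlap.

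Single pairs showed where the ratios moved. The log2 ratio of Bcl2 to Bax, the classical rheostat pair, was 0.63 to 1.81 for WT, 1.33 to 1.69 for ∆Firre, and -0.37 to 0.14 for Firre rescue, where Bax exceeded Bcl2 in 3 of 4 libraries. After GC correction it was 0.54 to 1.74, 0.96 to 1.34, and -0.02 to 0.62. The log2 ratio of Bcl2 to Bak1 without the correction was 1.30 to 1.74, 1.75 to 1.94, and -0.37 to 0.55, and it was the 1 ratio in which ∆Firre lay apart above WT. The ratio of Bax to Bak1 overlapped between all groups (0.39 ± 0.32, 0.32 ± 0.14, and 0.45 ± 0.37 as means ± SD), and so did that of Bcl2l1 to Bax (-2.91 ± 0.23, -2.96 ± 0.14, and -2.95 ± 0.42). The ratios of Bcl2 to Bcl2l11 (2.92 to 3.53, 2.69 to 3.37, and 2.01 to 3.16) and of Mcl1 to Bcl2l11 (3.60 to 3.91, 3.61 to 4.10, and 3.52 to 4.53) overlapped.

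The makeup of the survival transcripts differed as well. Mcl1 made up 59.9% ± 3.39 of them for WT, 61.6% ± 3.55 for ∆Firre, and 69.9% ± 1.20 for Firre rescue (SD, n = 4 each). Bcl2 made up 37.6% ± 3.34, 36.7% ± 3.17, and 26.0% ± 1.48. The log2 ratio of Mcl1 to Bcl2 was 1.32 to 1.51 in Firre rescue, above every WT (0.38 to 0.82) and every ∆Firre library (0.46 to 0.92). Together the 10 members came to 591 to 702 TPM for WT, 576 to 644 for ∆Firre, and 462 to 656 for Firre rescue, which overlapped.

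**Figure D4:**
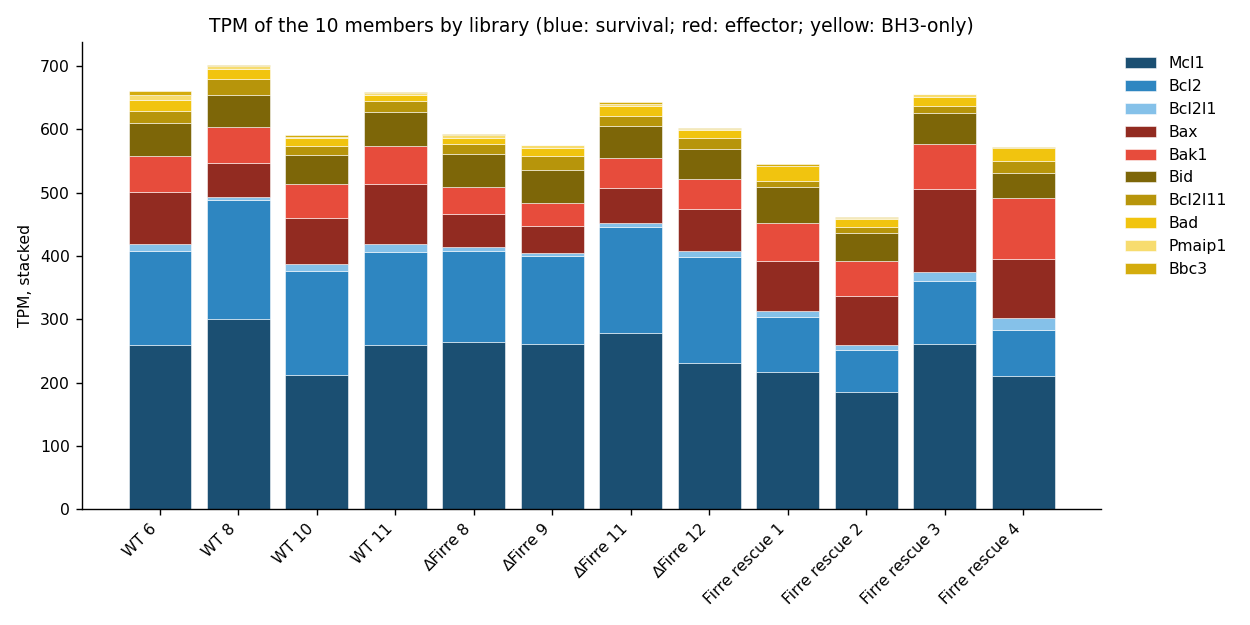
Stacked TPM (vertical axis, from 0) of the 10 members in each of the 12 libraries, with survival members in blue, effectors in red, and BH3-only members in yellow. The blue part is smaller and the red part mostly larger in the 4 Firre rescue libraries, where survival members sum to 259 to 375 TPM and effectors to 132 to 201 TPM.

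Across the 12 libraries some members varied together, which is a description with no test, since the libraries share groups and depth. On log2(TPM + 1), Bax and Bcl2l1 had a Pearson r of 0.88, Bak1 and Bcl2l1 0.82, and Bax and Bak1 0.79. Mcl1 and Pmaip1 had 0.77 and Bcl2 and Mcl1 0.72. Bcl2 had -0.50 with Bax and -0.53 with Bak1. Of all genes tested, those whose pattern was most like that of Bcl2 were Ccnt1 (r = 0.976), ENSMUSG00000106864.3 (0.974), and Arih1 (0.974), whose means were 59.5, 38.0, and 116 TPM in WT and 42.1, 23.7, and 91.0 TPM in Firre rescue. For Mcl1 they were Ifit2 (0.92), Ttf1 (0.918), and Pik3cg (0.914), and for Bcl2l11 they were Ccdc90a (0.943), Plekha5 (0.916), and ENSMUSG00000102275.1 (0.908).

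Other genes of the pathway were read from lists of 65 genes, of which 63 were in the table and 59 were tested. Deletion of Firre alone gave 0 calls among the 59 with limma, where 3 had an unadjusted p under 0.05, and limma-voom called no gene at all. Between Firre rescue and ∆Firre 5 were higher and 17 lower, with a median log2 fold change of -0.19 against -0.16 for all genes, and between Firre rescue and WT 3 were higher and 19 lower, with a median of -0.25 against -0.21. The share of higher genes is near that of all genes given above and the share of lower genes is above it, and no test was made of these shares. The calls of 3 of the 5 and 9 of the 17 held with each single library left out, as did 1 of the 3 and 10 of the 19 against WT. After GC correction 2 of the 5 and 1 of the 17 were called in the same direction against ∆Firre, and 2 of the 3 and 4 of the 19 against WT. Bcl2l13, Cycs, Vdac2, Il7r, Foxo1, and Btrc were newly called higher against ∆Firre, and Vdac2, Il7r, and Btrc against WT. No gene of the 59 was newly called lower. The share of lower genes was then below that of all genes against ∆Firre (6.72%) and near it against WT (5.93%).

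Among other family members, 1 of 3 effector or BH3-only genes tested rose in both comparisons (background 8.58% against ∆Firre and 4.82% against WT). Bik, a BH3-only gene active at the endoplasmic reticulum, had means of 2.27 ± 0.708 TPM for WT, 1.92 ± 0.874 for ∆Firre, and 6.10 ± 1.16 for Firre rescue (SD, n = 4 each), on 3 to 15 reads in the first 2 groups and 39 to 69 in the last. The Firre rescue libraries lay above all others, as in 3.55% of genes against WT. Its log2 fold change was 1.33 against ∆Firre (standard error 0.32, limma adjusted p = 0.0133) and 1.13 against WT (limma adjusted p = 0.0295). After GC correction these were 1.16 and 1.15, with limma adjusted p values of 0.0233 and 0.0282. With limma-voom on the recovered reads Bik was called against ∆Firre (adjusted p = 0.0502) but not against WT (adjusted p = 0.104). Of the other survival genes 2 were tested and 0 were called. Bnip3l, a mitophagy receptor, was lower against ∆Firre (-0.36, limma adjusted p = 0.0173), and 0.05 after GC correction.

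Downstream of mitochondria 0 of 16 genes were higher in Firre rescue without GC correction (background 8.58% against ∆Firre and 4.82% against WT). Against ∆Firre 3 were lower, among them Birc3, an inhibitor of apoptosis, which kept the call with each library left out (-0.51, limma adjusted p = 0.0287) but not after GC correction (-0.18, limma adjusted p = 0.396), and against WT 6 were lower, of which Casp9 and Xiap kept it. The 3 of 16 is near the background share of lower calls against ∆Firre (19.3%), and the 6 of 16 is above that against WT (19.4%). After GC correction none of the 3 was still called lower against ∆Firre (background 6.72%). Of the 6 against WT only Casp9 was, so that the share was then near the background (5.93%). Casp9, the initiator caspase of the apoptosome, gave -0.81 against WT (limma adjusted p = 0.0167) and -0.66 after GC correction (limma adjusted p = 0.053). Its call was lost after quantile normalization (-0.53, limma adjusted p = 0.127). Xiap, an inhibitor of caspases, gave -0.43 against WT (limma adjusted p = 0.0282) and 0.03 after GC correction. Cycs (0.66, limma adjusted p = 0.0233) and Vdac2 (0.22, limma adjusted p = 0.0717) were called higher against ∆Firre after the correction (background 14.3%). Against WT, Vdac2 was (0.31, limma adjusted p = 0.0176, background 11.1%).

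In the death receptor list of 7, 3 genes were lower and 1 higher against ∆Firre, and 3 were lower against WT, where the background was 19.3% lower and 8.58% higher against ∆Firre and 19.4% lower against WT. Of these calls those of Casp8, the initiator caspase that cleaves Bid, held with each library left out (-0.32 and -0.28, highest limma adjusted p 0.047 and 0.0749), and after GC correction Casp8 was at 0.01 and 0.03. The calls of the others were each lost without 1 or more libraries. In the IL-7 receptor and survival signaling list of 12, where 2 genes were higher against ∆Firre (background 8.58%) and 1 against WT (background 4.82%), Akt1 was higher against ∆Firre (0.53, limma adjusted p = 0.021, 0.19 after GC correction) and so was Stat5b (0.31, limma adjusted p = 0.0925). The Stat5b call held after GC correction (0.40, limma adjusted p = 0.0123) but was lost with any of 6 of the 8 libraries left out, up to an adjusted p of 0.195 without ∆Firre mouse 8. Foxo1, which drives Il7r and Rag genes, was higher against WT (0.56, limma adjusted p = 0.0695, and 0.80 after GC correction, limma adjusted p = 0.0106), and that call was lost with any of 5 of the 8 libraries left out, up to an adjusted p of 0.165 without WT mouse 8. Against ∆Firre Foxo1 was not called (0.43, limma adjusted p = 0.141), but it was after GC correction (0.66, limma adjusted p = 0.0261). It was also called there with limma-voom (adjusted p = 0.0333) and after median-ratio rescaling and quantile normalization (limma adjusted p = 0.0598 and 0.0594). Of 3 lower genes against ∆Firre and 4 against WT (background 19.3% and 19.4%), the call of Il2rg, the common gamma chain of the IL-7 receptor, against WT (-0.55, limma adjusted p = 0.0122) held with each library left out, and after GC correction it was at -0.27 and not called. Il7r, the receptor gene whose protein was used in the sort, is named after its values were seen. It was not called, with means of 424 ± 31.2 TPM for WT, 423 ± 74.8 for ∆Firre, and 404.5 ± 41.1 for Firre rescue, but after GC correction it gave 0.38 against ∆Firre (limma adjusted p = 0.0306) and 0.33 against WT (limma adjusted p = 0.0661).

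Of the 9 p53 targets tested besides the members, 4 were lower and 1 higher against ∆Firre (background 19.3% and 8.58%), and all but Trp53inp1 (0.149 without ∆Firre mouse 9, 0.146 without Firre rescue mouse 4) kept the call with each library left out. Against WT 3 were lower and 1 higher (background 19.4% and 4.82%). Mdm2, which encodes the ubiquitin ligase that restrains p53, had means of 81.3 ± 9.25 TPM for WT, 69.3 ± 6.11 for ∆Firre, and 49.2 ± 3.08 for Firre rescue (SD, n = 4 each). Mdm2 differed by -0.48 against ∆Firre (limma adjusted p = 0.00783) and by -0.71 against WT (limma adjusted p = 0.00111). After GC correction these were -0.15 and -0.39, with limma adjusted p values of 0.399 and 0.0339. Ccng1 gave -0.34 against ∆Firre (limma adjusted p = 0.0237) and -0.48 against WT (limma adjusted p = 0.00523). After GC correction Ccng1 was at 0.09 and -0.08, called in neither. Perp gave -1.51 and -1.63 (limma adjusted p = 0.035 and 0.0277) on 7 to 61 reads per Firre rescue library, and -1.20 and -1.33 after GC correction (limma adjusted p = 0.0698 and 0.0536). Phlda3, an inhibitor of Akt, gave 0.91 against ∆Firre (limma adjusted p = 0.0153) and 0.68 against WT (limma adjusted p = 0.055), the latter lost without WT mouse 11 (0.141) or Firre rescue mouse 1 or 2 (0.101 and 0.13). After GC correction Phlda3 was at 0.40 and 0.47, called in neither (limma adjusted p = 0.322 and 0.263).

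Among 5 genes for Mcl1 protein turnover, Gsk3b, Usp9x, and Fbxw7 were lower in both comparisons (background 19.3% against ∆Firre and 19.4% against WT) and 0 were higher (background 8.58% and 4.82%). After GC correction Btrc was called higher against ∆Firre (0.36, limma adjusted p = 0.07) and WT (0.44, limma adjusted p = 0.0358), with backgrounds of 14.3% and 11.1%. Against WT it was also called after median-ratio rescaling (limma adjusted p = 0.0433) and quantile normalization (limma adjusted p = 0.0394). Gsk3b, a kinase that marks Mcl1 for degradation, had means of 42.4 ± 3.09 TPM for WT, 38.6 ± 1.13 for ∆Firre, and 26.1 ± 4.07 for Firre rescue. The difference from ∆Firre was -0.56 (limma adjusted p = 0.00692) and that from WT -0.69 (limma adjusted p = 0.00273). GC correction left -0.22 and -0.37, with limma adjusted p values of 0.184 and 0.0416. Usp9x, a deubiquitinase that stabilizes Mcl1, and Fbxw7, a ubiquitin ligase subunit that targets it, gave -0.35 and -0.42 against ∆Firre (limma adjusted p = 0.0391 and 0.0699) and 0.10 and -0.10 after GC correction. The call of Usp9x was lost without ∆Firre mouse 8 (0.103), and that of Fbxw7 with any of 7 of the 8 libraries left out, up to 0.152 without ∆Firre mouse 9. Against WT they gave -0.46 and -0.64 (limma adjusted p = 0.0147 and 0.0145), called with each library left out (highest 0.0415 and 0.0437) but not after GC correction (-0.05 and -0.33, limma adjusted p = 0.805 and 0.189). The list thus held genes that act in opposite ways on the Mcl1 protein, whose level RNA does not give.

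**Figure D5:**
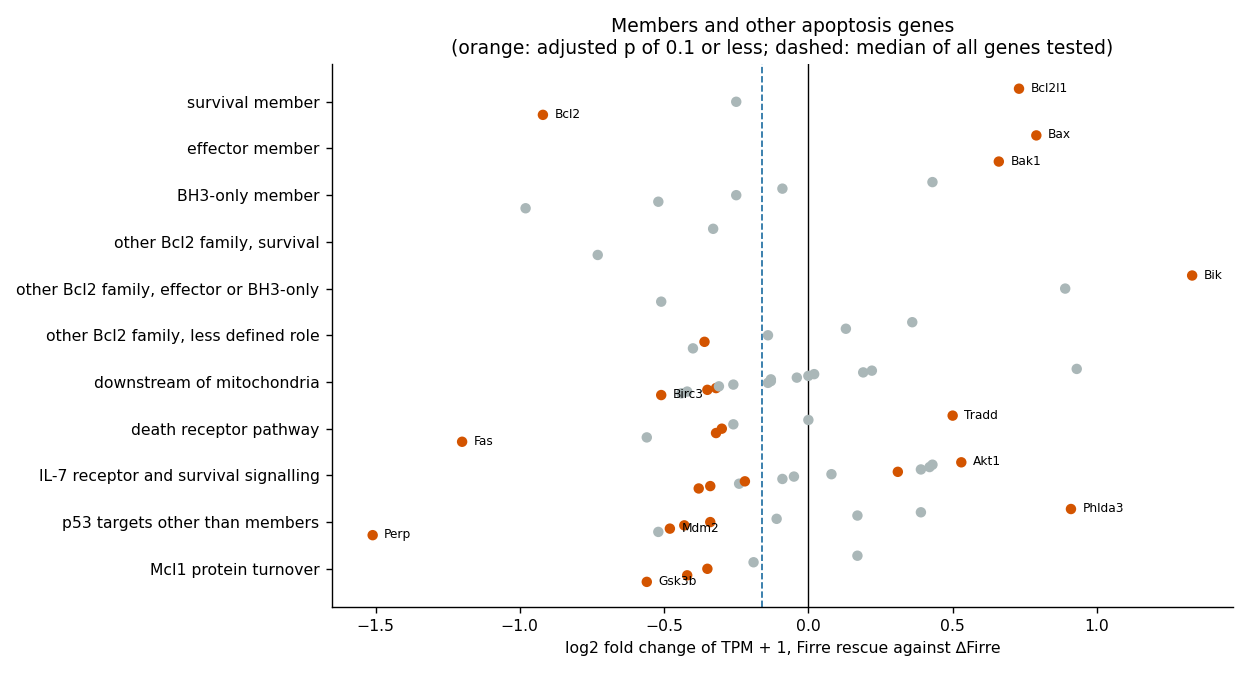
Log2 fold change of TPM + 1 in Firre rescue against ∆Firre (horizontal axis) of the members and of the other apoptosis genes, 1 row per list and 1 point per gene. Orange marks an adjusted p of 0.1 or less, with names for called genes beyond 0.45 in either direction, and the dashed line the median of all genes tested (-0.16), around which most of the grey points lie.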

How the data were processed

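CLPs from 12 male mice gave 1 poly(A)+ library each. Per the labels and the methods of the study, the authors trimmed reads with cutadapt, mapped them to mm10 with TopHat2 2.1.1, and assigned them to Gencode genes with featureCounts. The deposited values are TPM. Strand settings and gene lengths are not given in the sources used here, so reads of overlapping genes on opposite strands cannot be told apart. Symbols came from a gene table joined by identifier, in which Bcl2a1a, Bcl2a1d, and Hbb-bs were not matched, and positions and upstream sequences from RefSeq (GRCm38).

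The members and lists were chosen with earlier results of these data known. Genes whose TPM averaged 1 or more were tested with limma 3.58.1 (R 4.3.3) on log2(TPM + 1), a pseudocount of 1, with lmFit, eBayes, and a variance trend. A fold change on this scale understates that of low genes. P-values measure the spread between mice, 1 library each. Reads were recovered as whole multiples of the value of 1 read (within 0.05 of a whole number in every library for 99.97% of genes tested), and they cover counting error only. They served for depth and limma-voom. GC content came from the longest protein-coding transcript of an older annotation, found for 80.9% of genes tested. Python 3.11.15, numpy 2.4.6, and pandas 2.3.3 were used. The fit was tested on simulated data.

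Named were the 10 members, in each list up to 4 called genes per direction with the smallest p, and the 3 genes most like Bcl2, Mcl1, and Bcl2l11. Alternatives were other pseudocounts, filters, scalings, trends, nulls, and thresholds, blocks, limma-voom, and each library left out. The planned ratio of Mcl1 to Pmaip1 was left out because Pmaip1 was at 0 in 1 library, and ratios of Bcl2 to Bak1, Mcl1 to Bcl2, Bax to Bak1, and Bcl2l1 to Bax were added after seeing the data. Some genes of the lists are counted but not reported here by name.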

Additional observations from a re-analysis of the deposited data

Results flagged for a closer look

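Over the 10 members and the balance and pair ratios, 72 sets of 4 libraries were searched for a library far from the other 3 of its group, where chance would give about 3.6 such cases, and 4 were found by Dixon's test, with gaps to the nearest library of 0.838 to 0.906 of the range of the group. Bcl2l1 stood at 2.75 on the log2(TPM + 1) scale in WT mouse 8, against 3.61 to 3.78 in the other WT mice. The same mouse held the lowest Bax and the highest Bcl2, Mcl1, and Bcl2l11 of its group. Without it the log2 fold change of Bcl2l1 between ∆Firre and WT was -0.70 in place of -0.47, and neither was called. That mouse also had the highest log2 ratio of survival to death members without Bcl2, at 0.55 against 0.14 to 0.18 in the other WT mice. The same ratio was lowest in Firre rescue mouse 4, at -0.24 against -0.06 to -0.03. The log2 ratio of survival to BH3-only members was lowest in WT mouse 6, at 2.04 against 2.28 to 2.33.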

How the results depend on the processing

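Counts of members called between ∆Firre and WT were 0 under every setting run. Between Firre rescue and ∆Firre the count was 4, from 3 to 5 with a library left out, and 0 with the empirical null. After GC correction with or without the replicate block it was 2 (Bcl2 and Bak1). With limma-voom Bcl2l11 was called as well (adjusted p = 0.088), and after quantile normalization Bad was (limma adjusted p = 0.0965). Against WT the count was 2, from 1 to 3 with a library left out, and 0 with the empirical null. It was 1 (Bcl2) with no filter and with TPM recomputed without Firre, immunoglobulin, ribosomal protein, and mitochondrial genes. It was also 1 with the third group left out of the fit, at an adjusted p of 0.05, and with the replicate block. The same held with limma-voom and after GC correction with or without the block. After median-ratio rescaling Bax and Bak1 were called higher beside Bcl2 (limma adjusted p = 0.0868 and 0.0524), and Bcl2l11 was not called (0.213). After quantile normalization Bak1 was called higher (limma adjusted p = 0.0831) and Bcl2l11 was not called (0.285). The mouse numbers 8 and 11, shared by WT and ∆Firre, did not pair the libraries (correlations of deviations -0.033 and -0.041), and as a block they removed Bcl2l1 (limma adjusted p = 0.262) and Bcl2l11 (0.199) from the calls and lowered the count of all genes called against WT from 3512 to 2113. All genes called against ∆Firre split into 1242 higher and 2801 lower, but into 1889 and 1875 after median-ratio rescaling, 2001 and 1732 after quantile normalization, 1459 and 2318 with TPM recomputed as above, and 1674 and 787 after GC correction. Against WT the splits were 698 and 2814, then 1288 and 1256, 1208 and 1210, 859 and 1880, and 1295 and 694, and 491 and 1772 without ∆Firre in the fit. The cause of these moves was not tested.

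The survival to death difference was -0.85 against ∆Firre (-0.89 to -0.79 with a library left out), -0.38 after GC correction, -1.19 over effectors, -0.34 over BH3-only members, -0.62 without Bcl2, and -1.20 without Mcl1. Against WT it was -0.60 (-0.65 to -0.50), -0.30 after GC correction, -0.77 over effectors, -0.30 over BH3-only members, -0.35 without Bcl2, and -1.01 without Mcl1. Between ∆Firre and WT it was 0.25 (0.20 to 0.35), 0.08 after GC correction, 0.42 over effectors, 0.04 over BH3-only members, 0.27 without Bcl2, and 0.19 without Mcl1.

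Signs turned for members that were not called. Between ∆Firre and WT, Bid (-0.00) was at 0.07 after median-ratio rescaling, 0.08 after quantile normalization, 0.05 with TPM recomputed, 0.06 with limma-voom, and 0.04 after GC correction with or without the block. Bcl2 was at 0.01 after rescaling. With limma-voom Bcl2l11 was at 0.01, Pmaip1 at 0.03, and Bad at 0.00, and after GC correction Bad was at 0.20. With a library left out Bcl2 ranged from -0.11 to 0.01, Mcl1 from -0.08 to 0.09, Bcl2l11 from -0.21 to 0.04, Pmaip1 from -0.47 to 0.15, Bad from -0.22 to 0.04, and Bid from -0.04 to 0.03. Against ∆Firre, Bid (-0.09) was at 0.03 after rescaling, Bbc3 at 0.49 after quantile normalization, and after GC correction Mcl1 was at 0.02, Bad at -0.00, and Bid at 0.09 (0.11, -0.03, and 0.10 with the block). Against WT, Bid was at 0.10, 0.07, 0.01, and 0.04 after rescaling, quantile normalization, TPM recomputed, and limma-voom, and after GC correction Mcl1 was at 0.03 and Bid at 0.13 (0.12 and 0.14 with the block). Bbc3 and Pmaip1 had the fewest reads, 142 or fewer per library, and whether depth limits their tests was not tested.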
